A study of Mus musculus with 8 samples.

Results

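Acetylation was examined at 10 genes of the goblet cell, the mucus-secreting cell of the intestinal epithelium: Muc2, Fcgbp, Clca1, Zg16, Tff3, Spink4, Agr2, Spdef, Klf4 and Creb3l1. They are 10 of the 21887 protein-coding genes of the RefSeq mouse annotation. Each was taken as its locus, the gene body plus 50 kb on each side, because acetylated enhancers often lie outside the gene they serve. All 10 had a RefSeq locus on GRCm38, and no locus overlapped another. The rule that names them uses gene symbols and no measured value, but the members were chosen with earlier results of these data known.

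Acetylation of histone H3 on lysine 27 (H3K27ac) and on lysine 9 (H3K9ac) was mapped by CUT&Tag in epithelial cells of small intestinal crypts from male C57BL/6J mice aged 9 weeks. In CUT&Tag an antibody directs a transposase to the mark, and the DNA it cuts is sequenced. The mice were either fed (Fed) or fasted for 24 h (Fast), and either received tetracycline, an antibiotic, for 21 days (+Tetra) or did not (-Tetra). That gives 4 groups per mark (Fed -Tetra, Fast -Tetra, Fed +Tetra and Fast +Tetra), each with 2 deposited peak lists, numbered 1 and 2, and 16 lists in all. All groups are of the same strain, sex and age. The labels do not say whether lists 1 and 2 come from different mice, so the spread between them may be technical. A bulk peak list also cannot tell fewer goblet cells from less of the mark per goblet cell.

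Goblet cells store the gel-forming mucin in granules and release it to build the mucus layer. The mucin is a very large glycoprotein that must be folded in the endoplasmic reticulum, so the cell also needs dedicated folding enzymes and secretory-pathway regulators. Goblet cells are scattered among more numerous absorptive and proliferating cells of the crypt. H3K27ac marks active enhancers and promoters, and H3K9ac is found mostly at active promoters.

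The lists differed in size. The H3K27ac lists held 32392 to 68545 peaks covering 33.1 to 64.2 Mb, and the H3K9ac lists 17249 to 99050 peaks covering 16.5 to 47.3 Mb. By number of peaks, the 2 largest lists of both marks were the Fast lists numbered 1. By covered length the largest H3K27ac list was Fast 2 -Tetra. The 2 largest H3K9ac lists, Fast 1 -Tetra with 99050 peaks and Fast 1 +Tetra with 97764, had short peaks, with a median width of 423 and 413 bp against 834 bp in the smallest list. The shortest median, 303 bp, was in Fast 2 +Tetra, with 53313 peaks. Despite that, the share of all genes with a peak within 1 kb of a gene end stayed between 42.9% and 50.7% for H3K27ac and between 41.1% and 53.2% for H3K9ac. All 10 epithelial marker genes were marked at a gene end in every H3K27ac list, and 9 or 10 of 10 in every H3K9ac list. No read totals come with the lists, so the depth behind each peak is unknown.

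The start regions of 4 members show the range of patterns found at these genes. Klf4 was marked in nearly every list of both marks and Muc2 in almost none, while Fcgbp was marked in every H3K27ac list and Agr2 mainly in Fast lists. Each sequence runs 5′ to 3′ from 250 bases before to 50 bases after the RefSeq start, on GRCm38.p6. Capitals mark CACCC or its complement GGGTG, the core bound by the Krüppel-like family to which Klf4 belongs.
Klf4 (chr4:55532426-55532725, minus strand): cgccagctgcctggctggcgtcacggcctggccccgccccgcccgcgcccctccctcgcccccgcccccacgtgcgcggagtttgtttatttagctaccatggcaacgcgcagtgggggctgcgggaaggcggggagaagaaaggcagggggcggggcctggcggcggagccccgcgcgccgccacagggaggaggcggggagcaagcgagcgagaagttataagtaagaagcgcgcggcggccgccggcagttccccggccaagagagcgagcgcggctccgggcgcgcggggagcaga
Fcgbp (chr7:28070986-28071285, plus strand): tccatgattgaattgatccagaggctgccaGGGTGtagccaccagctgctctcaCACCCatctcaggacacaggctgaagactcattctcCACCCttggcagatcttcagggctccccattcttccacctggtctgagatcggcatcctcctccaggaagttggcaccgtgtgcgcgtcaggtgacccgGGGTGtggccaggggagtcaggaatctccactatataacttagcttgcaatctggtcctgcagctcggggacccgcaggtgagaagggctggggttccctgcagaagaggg
Agr2 (chr12:35992675-35992974, plus strand): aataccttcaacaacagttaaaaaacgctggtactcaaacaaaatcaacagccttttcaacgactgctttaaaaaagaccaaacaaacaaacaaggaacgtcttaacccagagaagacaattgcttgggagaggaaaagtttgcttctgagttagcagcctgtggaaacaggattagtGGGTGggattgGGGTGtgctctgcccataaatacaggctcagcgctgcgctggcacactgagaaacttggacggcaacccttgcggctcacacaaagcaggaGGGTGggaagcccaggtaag
Muc2 (chr7:141690090-141690389, plus strand): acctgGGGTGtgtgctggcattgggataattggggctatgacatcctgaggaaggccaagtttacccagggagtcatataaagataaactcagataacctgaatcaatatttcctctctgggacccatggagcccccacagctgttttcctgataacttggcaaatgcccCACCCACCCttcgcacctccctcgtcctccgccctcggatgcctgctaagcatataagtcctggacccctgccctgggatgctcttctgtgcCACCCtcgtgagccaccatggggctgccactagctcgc
The Klf4 window is rich in G and C, 74.3%, and holds 40 CpG dinucleotides. The other windows had a GC content of 58.3% for Fcgbp, 47.3% for Agr2 and 55.3% for Muc2, and 7, 7 and 6 CpG. Across the 32851 promoters of the RefSeq table the median was 52.7% GC and 7 CpG, with the quartiles at 3 and 20 CpG.

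The promoter table held 5 members: the 4 above and Spdef, whose window (53.3% GC, 7 CpG) is not printed. Tff3, Clca1, Zg16, Spink4 and Creb3l1 were not in it. On either strand, and counting matches that overlap, CACCC occurred 4 times in the Muc2 window, 4 times in that of Fcgbp and 3 times in that of Agr2. It was absent from the Klf4 and Spdef windows, and 57.5% of all promoters hold it. CAGCTG, an E-box of the kind bound by Atoh1, occurred once each in Muc2, Fcgbp and Klf4 and in 16.3% of all promoters. ACGTG, the core of sites for Creb3-type factors, occurred at 1 place each in Spdef and Klf4, the Klf4 one within CACGTG, which reads the same on both strands. It occurred in 19.6% of all promoters. CCGGAT, a core bound by Spdef, occurred in none of the 5 windows and in 6.04% of all promoters. TATAA occurred in 4 of the 5 windows, all but Agr2, and in 24.9% of all promoters. These matches describe the letters of the windows and are not evidence of binding.

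Marking of the gene ends divided the 10 genes into a few that were marked throughout and many that were marked in only some lists. A gene end here is either end of the RefSeq gene, within 1 kb, since the strand of 5 members was not given in the table used. For H3K27ac, Fcgbp and Agr2 were marked in all 8 lists, Spink4 and Klf4 in 7, Tff3 in 4, Creb3l1 in 3, Zg16 in 2, and Muc2, Spdef and Clca1 in 1. Thus 2 of 10 were marked in all 8 lists, where the share among all genes was 33.6%, and none was unmarked in every list, where it was 39.4%. For H3K9ac, Klf4 alone was marked in all 8 lists, where 21.1% of all genes were. Agr2 had 5 such lists. Tff3, Fcgbp, Zg16, Spink4 and Creb3l1 had 4 each, Spdef 2, Clca1 1 and Muc2 0. A complete lack of H3K9ac at the gene ends, as in Muc2, was seen for 25.2% of all genes.

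**Figure D1:**
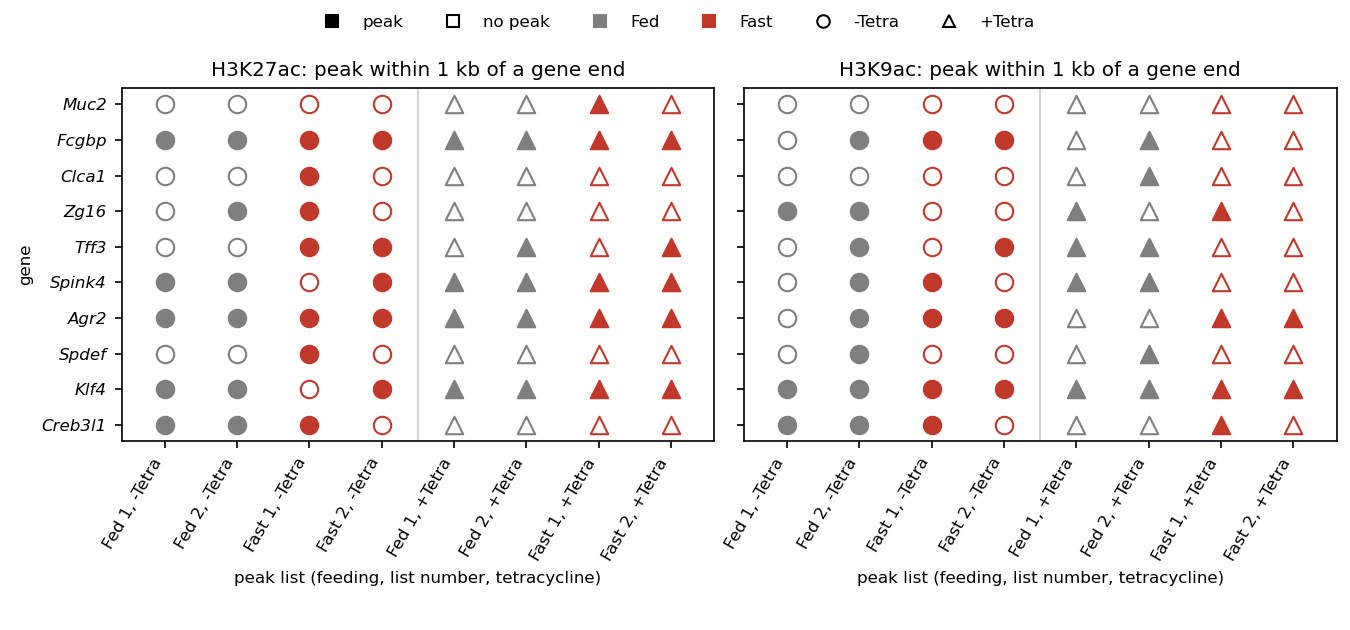
Peaks within 1 kb of a gene end, for the 10 goblet genes (rows) in the 8 H3K27ac lists (left) and the 8 H3K9ac lists (right). A filled symbol is a list with a peak and an open symbol one without; grey is Fed, red is Fast, circles are -Tetra and triangles +Tetra. Fcgbp and Agr2 are filled across H3K27ac, Klf4 across H3K9ac, and the Muc2 row is open but for 1 H3K27ac list.

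Counted per list in the order Fed 1, Fed 2, Fast 1, Fast 2, the number of the 10 genes marked by H3K27ac at an end was 5, 6, 7 and 5 in -Tetra mice and 4, 5, 5 and 5 in +Tetra mice. The Fed mean was 5.0 and the Fast mean 5.5, and the groups overlapped. The mean share of all genes marked in this way was 46.9% in Fed and 48.4% in Fast lists. The H3K9ac numbers were 3, 8, 5 and 4 in -Tetra and 4, 6, 4 and 2 in +Tetra. Their means were 5.25 in Fed and 3.75 in Fast, the groups again overlapped, and the shares of all genes were 46.3% and 47.5%. For H3K27ac, 4 members were marked in more Fast than Fed lists (Muc2, Tff3, Spdef and Clca1; 13.2% of all genes) and 3 in fewer (Spink4, Klf4 and Creb3l1; 9.44%). For H3K9ac only Agr2 was marked in more Fast lists (23.8% of all genes), and Tff3, Spdef, Clca1, Zg16 and Spink4 in fewer (20.7%). No member was marked in all 4 Fast lists and no Fed list, a pattern shown by 0.0959% of all genes for H3K27ac and 0.0777% for H3K9ac. Except for Agr2 in H3K9ac, each of these differences was of 1 or 2 lists.

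Muc2 encodes the gel-forming mucin of the intestine and spans 64.4 kb at chr7:141690340-141754691. It was the least marked of the 10. Its locus, which also takes in ends of the mucin genes Muc5ac and Muc6, held 11 H3K27ac peaks summed over the 8 lists and 15 H3K9ac peaks. The H3K27ac covered length, the part of the locus lying under peaks, was 0 and 0.514 kb in Fed and 1.41 and 0.828 kb in Fast without tetracycline. With tetracycline it was 0 and 1.03 kb in Fed and 2.92 and 1.63 kb in Fast. Both Fast lists lay above both Fed lists in each tetracycline state. The mean was 0.386 ± 0.493 kb in Fed and 1.70 ± 0.882 kb in Fast (SD, n = 4 lists each), a difference of 1.31 kb. The exact permutation test gave a two-sided p of 0.056, and 0.633 after Benjamini-Hochberg adjustment over all genes. The only peak at its start was 975 bp wide and was in the Fast 1 +Tetra list, and no H3K9ac list had one.

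That p of 0.056 is the smallest that 36 arrangements of the Fast and Fed lists within the 2 tetracycline states can give, so no single locus could pass 0.05. With the list number kept as a block only 16 arrangements remain, and the smallest p is 0.125. Of 21887 genes, 0 passed an adjusted or an unadjusted p of 0.05 for either mark and either comparison.

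Fcgbp encodes a large protein of the mucus gel that binds to the mucin, and lies at chr7:28071236-28120864. Its start was marked by H3K27ac in all 8 lists and by H3K9ac in 4, split evenly between Fed and Fast for both marks. Among genes with a start in the table, 34.5% had the start marked by H3K27ac in all 8 lists. The H3K27ac region over the printed promoter, chr7:28070369-28071650, was in 7 lists. The eighth list, Fast 1 +Tetra, had a peak within 1 kb of the start but not on the promoter. Those peaks were not prominent: the highest-scoring end peak of each list stood at a median percentile of 39.7 among the peaks of its list, by the authors' own score. H3K27ac covered 4.16, 3.87, 1.95 and 5.98 kb of the locus in Fed 1, Fed 2, Fast 1 and Fast 2 without tetracycline, and 2.81, 3.93, 6.01 and 4.10 kb with it. Fed and Fast overlapped. The H3K9ac values were 0.831, 4.87, 11.02 and 6.47 kb without and 3.84, 6.01, 10.1 and 3.45 kb with tetracycline. Here the 2 highest values belong to the Fast lists numbered 1. The mean H3K9ac difference of 3.89 kb, the largest of the 10, was 8.25 kb between lists numbered 1 and -0.48 kb between lists numbered 2 (exact permutation p = 0.222, adjusted p = 0.879). The higher H3K9ac mean in Fast thus rested on the lists numbered 1.

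Clca1 encodes a metalloprotease secreted into mucus and lies at chr3:145004537-145032776. It was marked at an end in 1 H3K27ac list (Fast 1 -Tetra) and 1 H3K9ac list (Fed 2 +Tetra). The H3K27ac peak there was narrow, 348 bp, and stood at percentile 1.64 of its list by score. A flanking H3K27ac region, chr3:144970743-144972596, 31.9 kb from the nearer gene end, was present in all 8 lists, and 5 H3K9ac lists overlapped it. H3K27ac covered 1.96, 4.58, 4.63 and 4.68 kb of the locus in -Tetra lists and 1.93, 6.47, 5.25 and 5.71 kb in +Tetra lists, in the same order. The low values were both in Fed lists numbered 1, and Fed and Fast overlapped (difference 1.33 kb, exact permutation p = 0.389). For H3K9ac Clca1 was 1 of 2 members with a lower mean in Fast than in Fed, by 1.56 against 2.23 kb (exact permutation p = 0.278). The difference lay in the +Tetra lists, -1.42 kb, with 0.08 kb in the -Tetra lists, and the flank limit decided its sign, since it was 0.35 kb with flanks of 25 kb.

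Zg16 encodes a small lectin of the mucus that binds bacterial cell walls, and lies at chr7:127050156-127052675. Its locus was the most densely covered of the 10 in both marks, with medians over lists of 14.8% for H3K27ac and 9.10% for H3K9ac. That ranked at percentile 93.5 and 95.4 of all genes. Ends of 6 other genes fall in this locus, and 37 of its 80 flanking H3K27ac peaks lay at such ends. In all 8 lists 6 H3K27ac regions were present, each in the flanks between 21.8 and 44.4 kb away, and 4 of them lay at ends of Mvp, Pagr1a, Prrt2, Kif22, Maz or AI467606. The gene ends themselves were marked in only 2 H3K27ac lists, Fed 2 and Fast 1 without tetracycline, and in 4 H3K9ac lists, 3 of them Fed.

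Tff3 encodes the trefoil peptide of goblet cells, which is secreted with the mucin, and lies at chr17:31125306-31129611. The locus also takes in ends of Abcg1, Tff1, Tff2 and Tmprss3. It was the only one of the 10 loci at which, in both marks, every Fast list had a longer covered length than every Fed list. H3K27ac covered 0 and 1.27 kb of its locus in Fed and 4.16 and 5.19 kb in Fast without tetracycline. With tetracycline it covered 0.802 and 2.22 kb in Fed and 3.63 and 4.53 kb in Fast. All 4 Fast values exceeded all 4 Fed values. The means were 1.07 ± 0.928 kb in Fed and 4.38 ± 0.656 kb in Fast (SD, n = 4 lists each), and the difference was 3.31 kb (exact permutation p = 0.056, adjusted p = 0.633).

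At Tff3, 3 H3K27ac regions were in more than 1 list. The first, chr17:31130514-31131701, begins 0.903 kb beyond the higher-coordinate end of the gene and was in all 4 Fast lists and 1 Fed list, Fed 2 -Tetra. The second, chr17:31133414-31135797, begins 3.80 kb beyond that end and was in all 4 Fast and 3 Fed lists. The third, chr17:31129050-31130023, over the same gene end, was in 2 Fast lists and 1 Fed list. H3K9ac covered 0.466, 1.54, 2.70 and 3.28 kb in -Tetra lists and 1.52, 2.26, 4.90 and 2.58 kb in +Tetra lists. All 4 Fast values again exceeded all 4 Fed values, with a mean of 1.45 ± 0.740 kb in Fed and 3.37 ± 1.07 kb in Fast (exact permutation p = 0.056, adjusted p = 0.875). No H3K9ac region of the locus was in more than 2 Fast lists. The H3K9ac separation was lost with equal numbers of top-scoring peaks and with the higher-scoring 0.5 of each list. It was kept with peaks of at least 500 bp, flanks of 25 kb and scaling to covered bases. Only 1 H3K9ac list overlapped each of the first 2 H3K27ac regions, and 2 H3K9ac lists the third. The gene ends were marked by H3K9ac in 3 Fed lists and 1 Fast list.

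Spink4 encodes a small secreted peptide of the Kazal inhibitor family that is abundant in goblet cells, and lies at chr4:40920056-40931395. Its lower-coordinate end carried H3K27ac in 7 lists, in the region chr4:40919387-40920683, with Fast 1 -Tetra the exception. Over the same end an H3K9ac region, chr4:40919558-40920493, was in 3 Fed lists and no Fast list. A separate H3K9ac region 0.543 kb from that end, chr4:40918977-40919513, was in 1 list, Fast 1 -Tetra. H3K27ac covered 8.21 and 12.5 kb of the locus in Fed and 14.1 and 19.1 kb in Fast without tetracycline. With tetracycline it covered 9.77 and 12.8 kb in Fed and 14.1 and 12.9 kb in Fast. All 4 Fast values exceeded all 4 Fed values, in +Tetra by a narrow margin. With every list kept, this separation was lost under each other peak choice, flank or scaling tried. The difference of 4.26 kb between 10.8 ± 2.19 kb in Fed and 15.1 ± 2.77 kb in Fast (SD, n = 4 lists each) was the largest of the 10 for H3K27ac (exact permutation p = 0.056, adjusted p = 0.633). Near Spink4, 5 H3K27ac regions were in all 8 lists, the closest 1.62 kb beyond the gene at chr4:40933014-40935327, and 2 of the 5 lay at ends of Bag1, Chmp5 or Nfx1. H3K9ac coverage did not separate the groups, with means of 5.28 kb in Fed and 5.37 kb in Fast.

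**Figure D2:**
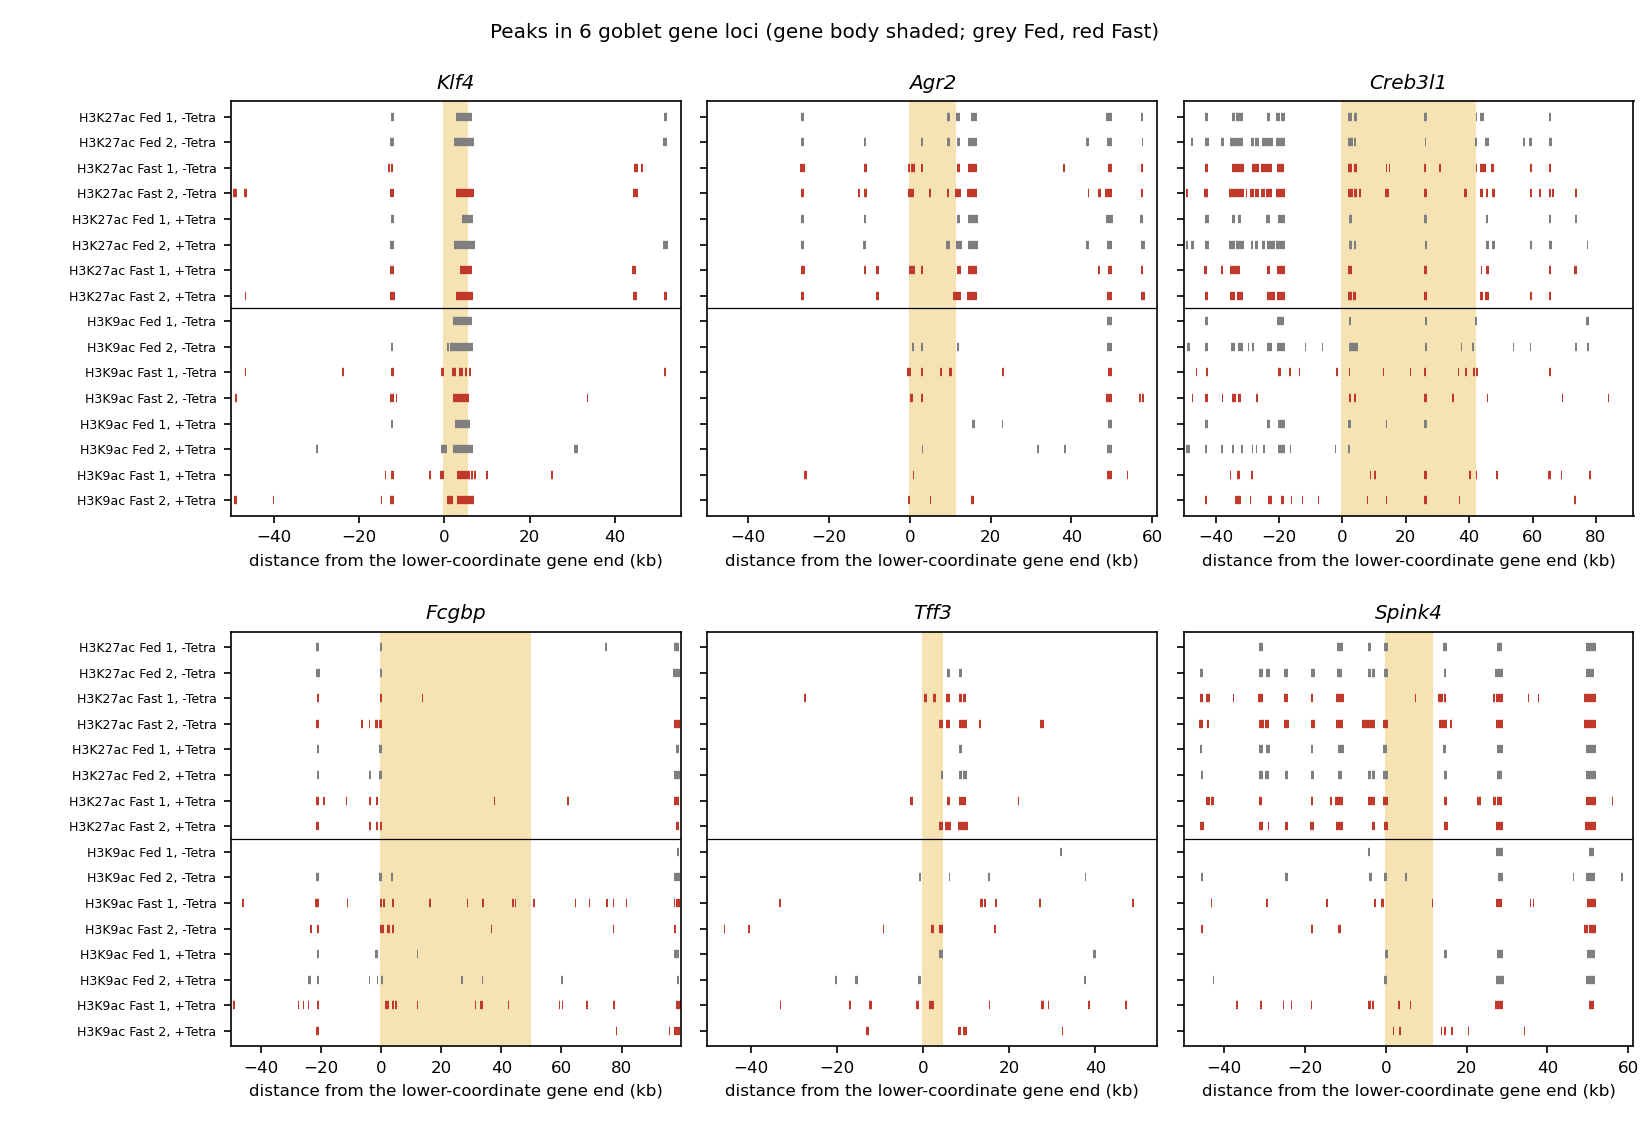
Peaks in 6 of the loci, by distance in kb from the lower-coordinate gene end, with the gene body shaded. Each row is 1 list, H3K27ac above the line and H3K9ac below it, grey for Fed and red for Fast. The block over the higher-coordinate end of Klf4 runs through both marks, the H3K27ac peaks just right of Tff3 are red in all 4 Fast rows, and the Agr2 start near 0 has H3K27ac in 3 red rows.

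Agr2 encodes a disulfide isomerase of the endoplasmic reticulum that is needed to make the mucin, and lies on the plus strand at chr12:35992925-36004081. Its ends differed. The far end, where the transcript stops, carried H3K27ac in all 8 lists, in the region chr12:36003641-36005849. It was a strong peak, at a median percentile of 90.4 by score, with a second constant region 3.09 kb beyond the gene end at chr12:36007167-36009774. Only 1 H3K9ac list overlapped the first and 2 the second.

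The start of Agr2 carried H3K27ac in 3 Fast lists (Fast 1 and Fast 2 without tetracycline and Fast 1 with it) and no Fed list, in the region chr12:35992480-35994322. H3K9ac, in the region chr12:35992363-35993962, was present in all 4 Fast lists and in 1 Fed list, Fed 2 -Tetra. A surplus of 3 or more Fast over Fed lists at the start was found for 0.703% of the 17492 genes with a start in the table for H3K27ac, and for 0.84% for H3K9ac. The presence of a peak was not tested, and the start was chosen for description after its values were seen. Over the whole locus H3K27ac covered 5.77, 7.996, 9.24 and 11.5 kb in -Tetra lists and 6.80, 9.52, 9.43 and 8.18 kb in +Tetra lists. The Fed and Fast values separated without tetracycline and overlapped with it (difference 2.07 kb, exact permutation p = 0.222).

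Among the 3 transcription factors, Klf4 was marked in the most lists. Klf4 is a zinc-finger factor needed for goblet cell maturation in the colon, and lies on the minus strand at chr4:55527137-55532475, with no other gene end in its locus. Only when joined over lists did the H3K9ac peaks form a single region, chr4:55526206-55534533, that spans the gene. In single lists they covered 2.46 to 4.42 kb of the 5.34 kb gene, and the lower-coordinate end was marked in 5 lists. Peaks of the region were in all 8 lists, with a peak at the start in each (21.5% of genes with a start in the table). The best H3K9ac peak there had a median width of 3965 bp and a median score percentile of 98.8. In Fast 1 -Tetra it was 931 bp wide, at percentile 53.4. A constant H3K27ac region lay 11.6 kb away at chr4:55514328-55515565, and 6 H3K9ac lists overlapped it. The H3K27ac region over the start of Klf4, chr4:55529312-55534210, was in 7 lists. The list without it, Fast 1 -Tetra, had 2.26 kb of H3K27ac in the locus against 3.21 to 7.78 kb in the other 7. The Fed and Fast means of H3K27ac were 5.43 ± 1.61 and 5.50 ± 2.55 kb (SD, n = 4 lists each), a difference of 0.08 kb (exact permutation p = 1). Its sign was negative with the strongest peaks alone, wider peaks, shorter flanks or a scaling to the list's covered bases. A flanking H3K27ac region farther out, chr4:55571157-55572546, 38.7 kb from the gene, was in all 4 Fast lists and no Fed list. It was 1 of the 153 H3K27ac regions of the 10 loci, where 0.4% of regions of the genome have that pattern, and no H3K9ac list overlapped it. No H3K9ac region of the 10 loci had the pattern, shown by 0.0189% of H3K9ac regions of the genome.

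Spdef, an Ets-family factor that drives goblet cell differentiation, lies on the minus strand at chr17:27714446-27731003. Its ends were marked in 1 H3K27ac list and 2 H3K9ac lists. The start in the promoter table, inside the gene's outer limits, had H3K27ac in 2 lists, Fed 2 and Fast 1 without tetracycline, and H3K9ac in none. H3K27ac covered 3.36, 7.85, 9.25 and 6.68 kb in -Tetra lists and 1.38, 3.62, 6.80 and 5.29 kb in +Tetra lists. The difference between Fast and Fed, 2.96 kb, was 5.66 kb for lists numbered 1 and 0.25 kb for lists numbered 2 (exact permutation p = 0.111). The constant H3K27ac region of its locus, chr17:27777413-27778577, lay 46.4 kb away. A region 9.48 kb from the gene, chr17:27740486-27742182, was in 7 lists.

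Creb3l1 encodes a membrane-bound factor of the endoplasmic reticulum that is released to the nucleus by proteolysis and controls secretory capacity. It lies at chr2:91982328-92024170. H3K27ac covered 13.2% of its locus in the median list, percentile 89.8 of all genes, although its ends were marked in only 3 H3K27ac lists. The mark lay instead in the flanks and the body. Inside the gene, 2 H3K27ac regions were in all 8 lists, chr2:91984020-91985672 at a median score percentile of 91.7 and chr2:92007917-92009096 at 41.8. Another 6 constant regions lay in the flanks, the widest at chr2:91946612-91951279. The nearest, chr2:92025654-92028513, began 1.48 kb beyond the higher-coordinate end, just outside the 1 kb window, so the count of marked ends depends on that window. H3K27ac covered 13.0, 21.6, 21.9 and 27.9 kb in -Tetra lists and 10.9, 21.5, 13.4 and 15.9 kb in +Tetra lists. The Fast and Fed groups overlapped, and the difference was 7.58 kb without tetracycline and -1.57 kb with it (exact permutation p = 0.444 over both). The H3K9ac mean was lower in Fast, 7.85 against 9.36 kb (exact permutation p = 0.778), and 1 Fed list, Fed 2 -Tetra, stood at 16.4 kb with no other list above 9.42 kb.

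**Figure D3:**
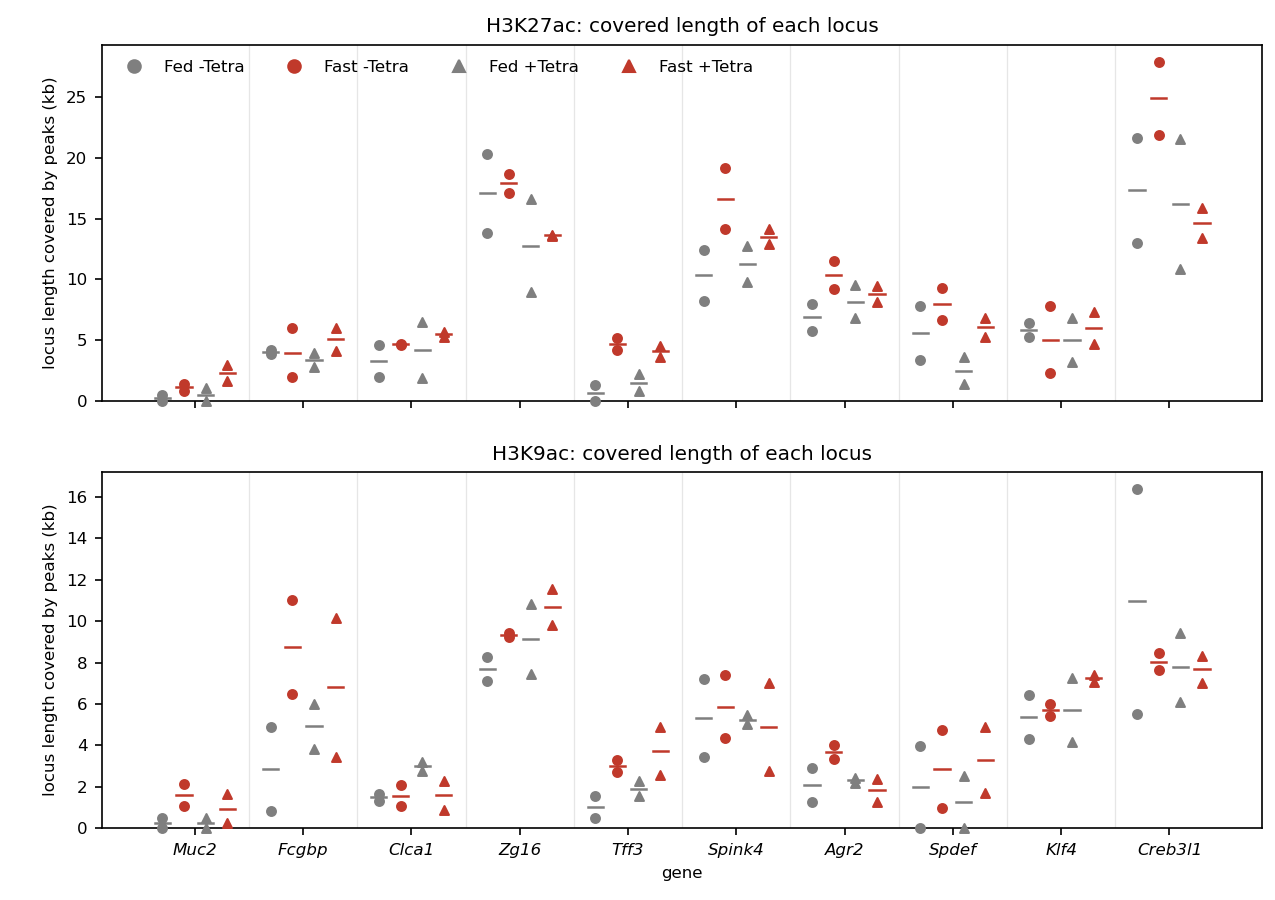
Length of each locus (gene body plus 50 kb each side) lying under peaks, in kb, for H3K27ac (top) and H3K9ac (bottom). Each symbol is 1 list, grey for Fed and red for Fast, circles for -Tetra and triangles for +Tetra, and each bar is the mean of 2 lists. In the Tff3 column the red symbols lie above the grey ones of the same tetracycline state in both panels.

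Across the 10 loci, the mean H3K27ac covered length was higher in Fast than in Fed lists at all 10, where 73.6% of all genes had that sign. For H3K9ac it was higher at 8 of 10, all but Clca1 and Creb3l1, where 74% of all genes did. The median difference of the members was 1.70 kb for H3K27ac against 0.43 kb over all genes, and 0.98 against 0.48 kb for H3K9ac. Other gene sets, given below, lay on both sides of the H3K27ac value, with 4.38 kb for stem cell markers and -1.44 kb for absorptive markers. Both Fast lists lay above both Fed lists in each tetracycline state at 3 of 10 loci for H3K27ac (Muc2, Tff3 and Spink4), where 8.51% of all genes did, and at 1 of 10 for H3K9ac (Tff3), where 5.38% did. The opposite arrangement was found at none of the 10, and at 0.265% and 0.429% of all genes. The sign of the mean at Zg16, Klf4, Fcgbp and Creb3l1 in H3K27ac reversed under at least 1 other scaling or peak choice. Muc2, Tff3, Spdef, Agr2, Clca1 and Spink4 kept the sign, a higher H3K27ac mean in Fast, under all 5 of these with every list retained. Of the 3 separated H3K27ac loci, only Tff3 stayed separated under all 5. The size of the difference was not kept. With equal numbers of top-scoring peaks it was 0.01 kb at Spdef, 0.07 kb at Clca1 and 0.44 kb at Muc2. It was 1.64 kb at Agr2, 2.23 kb at Tff3 and 2.32 kb at Spink4. The H3K27ac median of the members was then 0.43 kb, against 0 kb over all genes. For H3K9ac the sign reversed in this way at Fcgbp, Agr2, Zg16, Spink4, Klf4 and Clca1, and Muc2, Tff3 and Spdef kept a higher mean in Fast.

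Single lists weighed on these counts. The 3 separated H3K27ac loci became 6 without Fed 2 +Tetra, where the share over all genes was 21.1%. Without any other single list they were 3 or 4, with shares of 9.11% to 16.7%. For H3K9ac the 1 locus became 3 without Fed 2 +Tetra and 4 without Fast 2 +Tetra, with shares of 11.1% and 11.3%. Between lists numbered 1 alone, Fast exceeded Fed in both tetracycline states at 8 loci for H3K27ac and 9 for H3K9ac, where 59.9% and 77.7% of all genes did. Between lists numbered 2 alone it did so at 5 and at 1, where 18.7% and 9.23% of all genes did. It was below Fed in both states at 1 locus for H3K27ac (Zg16; 15.3% of all genes) and 4 for H3K9ac (Spdef, Clca1, Spink4 and Creb3l1; 45% of all genes). Tff3 was separated in both marks in each of these list choices. With the same number of top-scoring peaks taken from every list, Tff3 and Agr2 were separated for H3K27ac (5.12% of all genes). For H3K9ac no locus was separated upward, and Clca1 and Creb3l1 were separated downward (9.03% of all genes). The median H3K9ac difference of the members was then -0.80 kb, against -0.27 kb over all genes.

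The number of peaks in the 10 loci moved with list size. In the order Fed 1, Fed 2, Fast 1, Fast 2 it was 51, 76, 99 and 96 for H3K27ac in -Tetra lists and 43, 74, 81 and 65 in +Tetra lists. For H3K9ac it was 22, 67, 103 and 57, and 33, 60, 105 and 57. The means were 61.0 in Fed and 85.2 in Fast for H3K27ac, and 45.5 and 80.5 for H3K9ac. Per 1000 peaks of a list, the goblet loci held 1.47 in Fed and 1.59 in Fast for H3K27ac, and 1.26 and 1.19 for H3K9ac, so the H3K9ac direction turned. Flank peaks made up 81.9% of the H3K27ac peaks and 73.8% of the H3K9ac peaks in the loci, gene-end peaks 8.38% and 9.92%, and body peaks 9.74% and 16.3%. The flanks, 50 kb on each side, are also most of the length of every locus, since the gene bodies span 2.52 to 64.4 kb. This split was not set beside that of all genes. Body peaks averaged 5.0 in Fed and 9.25 in Fast for H3K27ac and 4.75 and 15.8 for H3K9ac. Per list, in the same order, they numbered 4, 8, 15 and 11 for H3K27ac in -Tetra lists and 2, 6, 7 and 4 in +Tetra lists. The H3K9ac numbers were 2, 8, 22 and 10, and 4, 5, 22 and 9, highest in the Fast lists numbered 1, which held the most peaks. Body peaks were not scaled to list size. Gene-end peaks averaged 5.25 and 7.0 for H3K27ac, and 6.0 and 6.5 for H3K9ac. Of the flank peaks, 17.95% for H3K27ac and 22.8% for H3K9ac lay at the ends of other genes.

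Joined across lists, the H3K27ac peaks of the loci formed 153 regions. Of these, 28 were in all 8 lists (18.3%, where the share for the genome was 14.6%) and 64 in a single list (41.8%, against 53.1%). Of the 28 constant regions 25 were in flanks, 2 in the body of Creb3l1 and 1 at a gene end, that of Agr2. Muc2 and Tff3 had none. H3K9ac gave 275 regions, of which 4 were in all 8 lists (1.45%, against 1.52% in the genome) and 191 in a single list (69.5%, against 84.4%). The constant H3K9ac regions were the one over Klf4, one at the end of Fbl in the Fcgbp locus, and 2 in the Zg16 locus at ends of Mvp and Pagr1a and of Kif22 and Maz. So Klf4 is the only member whose own gene end had constant H3K9ac.

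**Figure D4:**
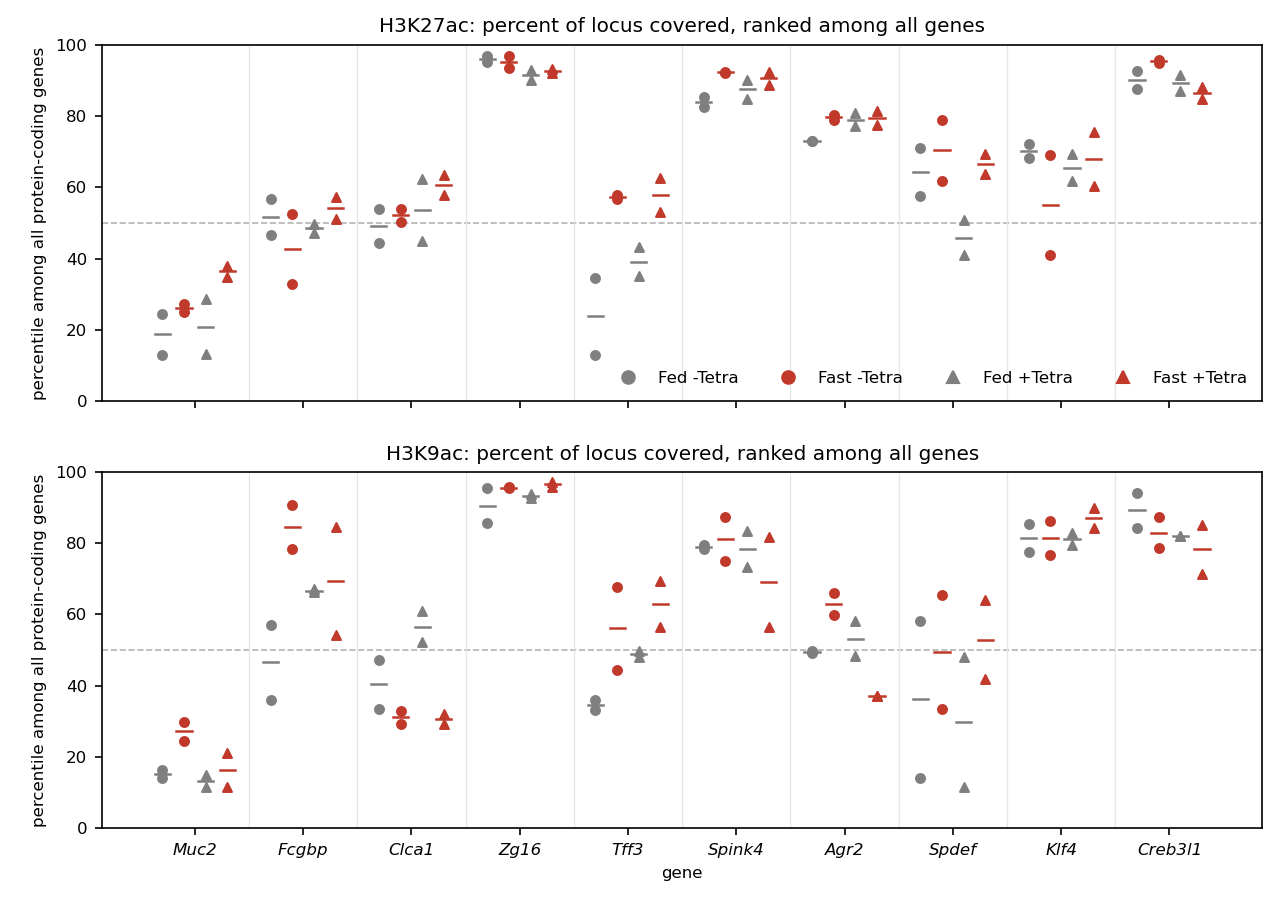
Rank of each goblet locus among all 21887 protein-coding genes, by the percent of the locus lying under peaks, for H3K27ac (top) and H3K9ac (bottom). Each symbol is 1 list, coloured and shaped by group, bars are means of 2 lists, and the dashed line is the middle of all genes. Zg16, Creb3l1 and Spink4 lie high and Muc2 low in both panels.

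Because the loci differ in length, levels were compared between genes as the percent of the locus covered. The median list gave this order for H3K27ac: Zg16 14.8%, Creb3l1 13.2%, Spink4 11.5%, Agr2 7.83%, Klf4 5.55%, Spdef 5.13%, Clca1 3.63%, Tff3 2.81%, Fcgbp 2.68% and Muc2 0.565%. Neighbours in this order overlapped over lists. Muc2 ranged from 0% to 1.78%, overlapping the range of Fcgbp, 1.30% to 4.02%, and that of Tff3, 0% to 4.98%. The H3K9ac order was Zg16 9.10%, Klf4 5.89%, Creb3l1 5.62%, Spink4 4.71%, Fcgbp 3.64%, Tff3 2.32%, Agr2 2.16%, Spdef 1.80%, Clca1 1.44% and Muc2 0.289%. Among all genes, Klf4 stood at percentile 68.7 for H3K27ac and 83.6 for H3K9ac, and Fcgbp at 50.5 and 66.7. Agr2 went the other way, at 78.2 and 49.4, as did Clca1, at 53.9 and 33.2. Muc2 ranked at 26.2 and 15.5. The median percentile of the 10 members lay between 55.7 and 69.7 in the H3K27ac lists and between 48.2 and 71.3 in the H3K9ac lists.

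Tetracycline separated the lists at none of the 10 loci in either mark, where 0.302% of all genes were separated upward and 2.91% downward for H3K27ac, and 0.781% and 0.32% for H3K9ac. The median difference of +Tetra from -Tetra was -0.05 kb for H3K27ac and -0.04 kb for H3K9ac, against -0.23 and 0.10 kb over all genes. H3K27ac was lower in +Tetra than in -Tetra at 3 loci in all 4 pairs of lists of the same feeding state and number. The share of all genes with that pattern was 11%. They were Zg16 (17.5 kb without and 13.2 kb with tetracycline, exact permutation p = 0.111), Spdef (6.78 and 4.27 kb, exact permutation p = 0.222) and Creb3l1 (21.1 and 15.4 kb, exact permutation p = 0.167). All have an adjusted p of 1. For Zg16 the H3K27ac values were 13.8, 20.3, 17.1 and 18.7 kb in -Tetra lists and 8.94, 16.6, 13.6 and 13.7 kb in +Tetra lists, so the groups overlapped. H3K9ac at Zg16 went the other way in all 4 pairs, from 8.52 to 9.92 kb (exact permutation p = 0.222), as did 7.71% of all genes. No member had less H3K9ac in +Tetra in all 4 pairs, where 2.92% of all genes did. The Spdef sign was not stable, since the difference was 0.16 kb with equal numbers of top peaks. At the gene ends, Creb3l1 had H3K27ac in 3 -Tetra lists and no +Tetra list, and Zg16 in 2 and 0. A region 1.48 kb beyond the same Creb3l1 end, outside the 1 kb window, was in all 8 lists. Fewer +Tetra than -Tetra lists marked an end for 4 members, where 13.9% of all genes showed this, and more for 3, where 8.19% did. For H3K9ac the numbers were 3 (20.8%) and 1 (22.2%).

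Another 4 lists of 12 genes each cover other sides of goblet cell biology. Over all genes, 46.9% in Fed and 48.4% in Fast lists were marked at an end for H3K27ac on average. For H3K9ac the shares were 46.3% and 47.5%. Of the secretory fate and transcription genes, such as Atoh1 and Foxa3, 8.5 on average were marked by H3K27ac at an end in Fed lists and 10.25 in Fast lists, with 9.0 and 8.75 for H3K9ac. Genes of folding and stress in the endoplasmic reticulum, such as Xbp1 and Hspa5, gave 10.25 and 11 for H3K27ac and 10.75 in both states for H3K9ac. The mucin glycosylation genes gave 7.25 and 7.75, and 6.5 and 7.0. Other goblet or mucus products, such as Retnlb and Reg4, gave 2.75 and 3.75, and 3.5 and 4.5. Among these products Muc13 and Nlrp6 were marked in all 8 lists of each mark, Reg4 in 1 H3K27ac list only and Retnlb in no list. At the ends of 7 of these 12 products no list had H3K27ac, against 3 of the glycosylation genes, 1 of the fate genes and 0 of the folding genes. Of all genes, 39.4% had none. H3K27ac coverage of the locus was separated with Fast higher at 5, 1, 6 and 3 of 12 genes in these lists, and at 1, 2, 0 and 4 for H3K9ac, and with Fast lower at 0. The shares over all genes were those given above, 8.51% and 5.38%. In the fourth list, the loci of Muc5ac and Muc6 overlap that of Muc2, and the loci of Tff1 and Tff2 overlap that of Tff3. Peaks of those 2 members are therefore partly counted again there. The median difference in H3K27ac covered length, Fast minus Fed, was 3.25, 0.945, 2.12 and 1.52 kb in these lists.

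The genes of these lists with the largest gap between Fast and Fed at a gene end were named by number of lists. For H3K27ac, Gcnt3, an enzyme that branches mucin sugars, was marked in 4 Fast and 0 Fed lists. The folding-stress sensor Ern2 and the factor Creb3l4 were each marked in 3 and 0, and Atoh1, the master regulator of secretory fate, in 4 and 2. Foxa2 and Muc4, marked in 3 and 1, had the same gap as Atoh1, and ties were broken by alphabet. For H3K9ac, the fucosyltransferase Fut2 was marked in 3 Fast and 0 Fed lists, and Ern2 and the mucins Muc4 and Muc5ac in 2 and 0. These genes were picked for the size of the gap, so their counts are a description.

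Markers of other cells were counted in the same way, beside the same shares over all genes. All 5 absorptive markers were marked by H3K27ac in every list. Of 5 stem cell markers, a mean of 1.75 was marked in Fed and 4.0 in Fast lists for H3K27ac, and 1.75 and 3.5 for H3K9ac. Of 10 lymphocyte and myeloid markers, 2 to 5 were marked per H3K27ac list, 3.0 on average in Fed and 5.0 in Fast, and 1.5 and 2.5 for H3K9ac. Of 4 Paneth cell markers the H3K27ac means were 0.5 in Fed and 1.25 in Fast, of 5 enteroendocrine markers 1.0 and 1.25, and of 5 tuft cell markers 0 and 0.25. The H3K9ac means of these 3 sets were 0.75 and 0.75, 0.75 and 1.5, and 0.5 and 1.25. Of 10 markers of other tissues 0 to 2 were marked per H3K27ac list. The median H3K27ac difference in covered length, Fast minus Fed, was 4.38 kb for stem, 4.09 kb for epithelial and 1.31 kb for Paneth markers. It was 0.74 kb for lymphocyte and myeloid, 0.69 kb for tuft, 0.43 kb for other-tissue, 0.26 kb for enteroendocrine and -1.44 kb for absorptive markers. Fast was separated upward at 3 of 5 stem, 2 of 4 Paneth, 1 of 5 enteroendocrine and 2 of 10 other-tissue loci, and at none elsewhere (8.51% of all genes). The part of cell composition and of list size in the differences at the goblet loci was not tested.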

How the data were processed

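CUT&Tag peaks of H3K27ac and H3K9ac were analysed from 8 samples with 2 peak lists each. Reads were checked with FastQC, aligned with Bowtie and handled with SAMtools on mm10, per the submitters' processing notes; the peak caller, its threshold and the use of the IgG antibodies are not given in the sources used here. The lists are described as downsampled in their names. The deposited score of each peak, the authors' own value with no stated unit and a minimum of 50, was used only to rank peaks within a list. Depth is unknown, and no interval was computed.

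Peaks were overlapped by at least 1 bp with RefSeq protein-coding genes of GRCm38 (Python 3.11.15, numpy 2.4.6, pandas 2.3.3), at gene ends (1 kb), in the body and in 50 kb flanks. Fast was compared with Fed within tetracycline state, and +Tetra with -Tetra within feeding state. A two-sided exact permutation test of covered length was used for all 21887 genes, with Benjamini-Hochberg adjustment. The permutation test and the separation of lists were run on simulated data with many peaks planted per locus in Fast lists. Differences as small as those reported here, and the adjustment, were not part of that check. A count of loci with both lists of one state above both of the other was read beside the same share over all genes. Regions are peaks of the 8 lists of a mark joined where they overlap. The members and gene lists were chosen with earlier results of these data known. All 10 members are named. Of the other goblet lists, up to 4 genes per mark with the largest difference between Fast and Fed lists are named. Of regions, those in all 8 lists, or in all 4 lists of 1 state and none of the other, qualified. Of 5 Paneth markers 4 matched the annotation. The alternatives were equal numbers of top peaks, the higher-scoring 0.5 of each list, peaks of at least 500 bp, flanks of 25 kb, a 2.5 kb end window, scaling to covered bases, leaving lists out, and list number as a block.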

Additional observations from a re-analysis of the deposited data

How the results depend on the processing

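With every list kept, 121 alternative values of single loci kept the sign of the reported value and 23 reversed it. Of the values for the 10 loci together or for all genes, 60 were counted as kept, 6 as moved and 16 as reversed. Kept means within the spread between lists or, for counts of loci, within 1.5 times. Values scaled to covered bases were judged by sign alone. The 60 include counts of genes passing the adjusted p threshold, which no gene could pass in this design. The 60 and the 121 also include differences with list number as a block, which cannot change. Such values say nothing about stability. Values below are Fast minus Fed unless +Tetra minus -Tetra is named, in kb of covered length for single loci and, for the 10 loci together, for their median. With equal numbers of top-scoring peaks in every list, H3K27ac was -0.13 at Zg16 and -2.02 at Klf4, members marked at an end differed by -0.5, and peaks in the loci by 3.5. H3K9ac was then -0.80 for the median, -0.19 at Fcgbp, -0.0713 at Agr2, -1.95 at Zg16, -1.77 at Spink4 and -1.42 at Klf4, peaks in the loci differed by -7.75, and 0 loci were separated with Fast higher (0.731% of all genes). For +Tetra minus -Tetra the medians were 0.21 for H3K27ac and 0.061 for H3K9ac, Spdef H3K27ac was 0.16, and marked members differed by 0.5 and 0.25. With the higher-scoring 0.5 of each list, 1 H3K27ac locus (Tff3) and 0 H3K9ac loci were separated (6.56% and 3.76% of all genes), Klf4 was -2.13 (H3K27ac) and -0.76 (H3K9ac), Spink4 H3K9ac was -0.49, and with tetracycline 0.5 more members had H3K27ac at an end and the H3K9ac median was 0.15. With peaks of at least 500 bp, Klf4 H3K27ac was -0.43 and Spink4 H3K9ac -1.29, and the tetracycline difference in H3K27ac was 0.26 for the median and 0.25 for marked members. With 25 kb flanks, Klf4 H3K27ac was -1.04, Clca1 H3K9ac 0.35, 2 H3K9ac loci were separated (4.7% of all genes), and the tetracycline medians were 0.10 and 0.21. With a 2.5 kb end window, H3K27ac-marked members differed by 1.5. Scaled to all bases the list covers (1 unit is 1 base in 1 Mb covered), H3K27ac was -1.47 at Fcgbp, -38.0 at Zg16, -18.1 at Klf4 and -6.74 at Creb3l1. H3K9ac was -12.3 for the median, -4.12 at Agr2, -42.2 at Zg16, -54.1 at Spink4 and -20.5 at Klf4, and the tetracycline medians were 11.3 and 0.65. The cause of these reversals was not tested.

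Leaving out the lists of one number, or single lists (an alternative chosen after seeing the data), gave these ranges. For H3K27ac the median ran from 0.69 to 3.27, separated loci from 3 to 8 (9.11% to 59.9% of all genes), marked members from -0.5 to 1.5, peaks from 5.5 to 43 and the tetracycline median from -1.05 to 0.50. For H3K9ac the median ran from -0.41 to 2.42, separated loci from 1 to 9 (5.73% to 77.7% of all genes), marked members from -4 to 1, peaks from -6.5 to 76.5, the tetracycline median from -0.82 to 0.89 and its marked members from -2.25 to 0.25. Single loci that changed sign between list numbers were Clca1 (-0.33 to 2.9965), Zg16 (-2.26 to 3.98) and Klf4 (-0.77 to 0.93) in H3K27ac. In H3K9ac they were Agr2 (-0.35 to 1.46), Clca1 (-1.45 to 0.11), Creb3l1 (-4.51 to 1.504), Fcgbp (-0.48 to 8.25), Klf4 (-0.16 to 2.03), Spdef (-1.92 to 4.83), Spink4 (-2.78 to 2.95) and Zg16 (-0.0305 to 3.22). With the list number as a replicate block the differences are the same, the smallest possible p is 0.125, and 0 genes passed 0.05, as without it. With 2 lists per group and no read depth, no difference at a single locus could pass the threshold in this design.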
